A study of Mus musculus with 9 samples.

Results

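The colon of mice on a high-fat diet (HFD) was compared with the colon of control mice by RNA sequencing of whole tissue. The 6 libraries compared, of 9 in the series, were chosen by their treatment labels: control replicates 1, 2 and 3, and HFD replicates 1, 2 and 4. The other 3 libraries, from mice that received a gut bacterium on top of the diet, entered no test given here except 1 alternative fit. All mice were of the strain C57BL/6, were put in 3 groups of 15 when 6 weeks old, and gave colon on postnatal day 98. No genotype, allele or drug is named for either group, and neither diet's composition is known from the sources used here. The labels name neither the stretch of colon sampled nor whether a library is 1 mouse, so p-values measure the spread between libraries, which may be partly technical. Of 54491 rows in the deposited table, 16909 genes reached 0.5 FPKM (fragments per kilobase of transcript, scaled to the mapped fragments of a library) in at least 3 of these 6 libraries and were tested.

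The wall of the colon combines an epithelium of absorptive colonocytes, mucus-secreting goblet cells and hormone cells with immune cells beneath it, and with nerves and muscle around it. Its cells differ along its length: the part near the small intestine carries more of the genes for nutrient handling, and the part near the rectum reclaims the last sodium and water through channels and pumps under hormonal control. In mouse studies a diet rich in fat is known to raise the supply of lipid to the gut and to alter bile acids, the bacteria of the lumen and the immune cells of the mucosa.

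The label colon was checked against marker genes. The epithelial markers Epcam, Cdh1, Vil1 and Krt8 summed to 2323 to 4527 FPKM in control and 2585 to 2948 FPKM in HFD, and the stomach markers Gkn1, Gkn2 and Muc5ac were listed at 0 in all 6 libraries. The 6 small intestinal markers summed to 2.65 to 519 FPKM in control and 18.3 to 40 FPKM in HFD, most of it Fabp6, an ileal bile acid-binding protein, which measured 20.5, 30.5 and 11.1 FPKM in HFD against 1.6, 466 and 111 FPKM in control. Control replicate 2 was the library with the most small intestinal RNA. Of the 4 pancreatic markers Cela1 rose, at 80.6, 94.7 and 100 FPKM in HFD against 24.3, 19.9 and 23.4 FPKM in control, while Prss2, Cpa1 and Pnlip stayed at or below 0.324 FPKM. Pbsn, a prostate gene, was listed at 0 in 4 libraries and at 2.66 and 20.1 FPKM in HFD replicates 1 and 2. The part of neighbouring tissue in the results was not tested. Depth, read from the commonest ratio of low values, ran from 0.89 to 1.103 relative to control replicate 1. Along the first principal component (63.9% of the variance) HFD libraries scored 46.8 to 50.7 and controls -52 to -44.5. Along the second (20.5%) control replicate 1 scored 56.6 and no other library more than 2.7. In control replicate 1 the smooth muscle markers Myh11, Des, Actg2 and Cnn1 summed to 4996 FPKM, against 1194 and 793 FPKM in control replicates 2 and 3 and 758 to 871 FPKM in HFD. Counts of list members are therefore also given without it, and without another library where that moved a count by over 1.5 times, or a count below 4 by at least 3. Among tested members, 2 of the anterior Hox, brush border, triglyceride and conjugation lists passed the filter only through control, 2 of the sodium, enteroendocrine, plasma cell and cytokine lists only through HFD, and 2 of the retinoid list through each, so that these could come out in that direction only. Larger numbers are given beside the counts, and every other list had at most 1.

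Between the diets 3335 genes were called, 1837 with more transcript in HFD and 1498 with less (limma with trended variance, Benjamini-Hochberg adjusted p below 0.05), which is 10.9% and 8.86% of the genes tested. Differences, in brackets or after rose by and fell by, are log2(FPKM + 1) in HFD minus control, a scale that understates changes of genes with low values. Of the genes that were higher, 229 differed by at least 2 on this scale, and of those that were lower, 154. Without control replicate 1 the counts were 2589 higher and 2785 lower (15.3% and 16.5%). Leaving out control replicate 2 gave 1078 and 706, and control replicate 3 gave 1484 and 1076. Leaving out HFD replicate 1, 2 or 4 gave 830 and 519, 928 and 604, or 850 and 474. Calls over all genes thus changed with each library left out, and every list count below is to be read beside these counts and shares. All lists were chosen with earlier results of these data known, so their counts are a description. The spread of called genes between directions depended on scaling: 55.1% were higher as tested and 79.8% after scaling every library to the same summed FPKM, which moved the median difference of all genes to 0.255. Over all genes 3647 were then higher and 922 lower, beside which list counts with equal summed FPKM are to be read. Such counts are not given for every list, and a list without them may also depend on scaling.

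The genes that differed most included posterior Hox genes, pumps, enzymes and antimicrobial proteins of the epithelial surface. Hoxd13, a transcription factor of the hindmost gut, measured 86, 94.3 and 72.6 FPKM in HFD against 0.45, 0 and 0.0266 FPKM in control (difference 6.22 on the log2 scale, SE 0.19, adjusted p = 0.00012). Hoxb13, another of these factors, measured 118, 128 and 134 FPKM in HFD against 7.73, 0.0598 and 0.0898 FPKM in control, with control replicate 1 the highest of the controls. Sval1, a gene of the seminal vesicle antigen-like family, measured 669, 740 and 1029 FPKM in HFD against 16, 4.08 and 3.65 FPKM in control. For Hoxd13, Hoxb13 and Sval1 the lowest HFD library lay above the highest control library. Atp12a, the catalytic subunit of the colonic hydrogen and potassium pump, measured 80.9, 81.1 and 91.5 FPKM in HFD against 3.94, 0.0821 and 0.428 FPKM in control (5.44, SE 0.54, adjusted p = 0.0019). All 3 HFD libraries lay above every control library, and control replicate 1 was the highest of the controls. Fxyd4, a small regulator of the sodium and potassium pump that responds to corticosteroids, measured 21.2, 22.4 and 14.7 FPKM in HFD against 0.0301, 0 and 0 FPKM in control, so that it was close to absent from control (4.32, SE 0.17, adjusted p = 0.00023). Casp14, a caspase of cornifying epidermis, was listed at 0 in all 3 control libraries and at 18.1, 19.4 and 19.3 FPKM in HFD (adjusted p = 4.5e-05). B3gnt7, which extends sugar chains of keratan sulfate and mucin type, measured 120, 108 and 144 FPKM in HFD against 20.5, 1.96 and 2 FPKM in control. Ly6g, the gene of a surface protein best known from neutrophils, measured 326, 299 and 252 FPKM in HFD against 46.6, 0.56 and 3.09 FPKM in control. Of the 4 neutrophil markers, S100a8 and S100a9 were at or below 0.961 FPKM and Cxcr2 at or below 0.0915 FPKM in every library, while Csf3r, a receptor of the myeloid line, rose, at 1.85, 2.35 and 1.2 FPKM in HFD against 0.326, 0.494 and 0.586 FPKM in control. For B3gnt7, Ly6g and Csf3r the lowest HFD library lay above the highest control library. The 4 neutrophil markers summed to 0.586 to 0.919 FPKM in control and 1.88 to 3.56 FPKM in HFD.

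In the other direction, Fabp2, the intestinal fatty acid-binding protein, measured 21.7, 18.1 and 30.2 FPKM in HFD against 743, 2458 and 1905 FPKM in control (-5.99, SE 0.46, adjusted p = 0.00095). Car1, a carbonic anhydrase of proximal colonocytes, measured 91.5, 56 and 118 FPKM in HFD against 603, 13019 and 19172 FPKM in control, with control replicate 1 far below the other 2 controls and still above HFD. Isx, an intestinal homeobox gene that represses carotenoid and retinoid uptake, measured 0.238, 0.0622 and 0 FPKM in HFD against 13, 72.8 and 63.5 FPKM in control. For Fabp2, Car1 and Isx the highest HFD library lay below the lowest control library. Among antimicrobial and immune effector genes of the epithelium, Reg3g, a lectin that kills gram-positive bacteria, measured 1.26, 1.24 and 0.837 FPKM in HFD against 8.57, 204 and 207 FPKM in control. Retnlb, a goblet cell protein of the resistin-like family, measured 12, 28.3 and 5.33 FPKM in HFD against 1469, 203 and 274 FPKM in control. Retnlb was highest in control replicate 1, whereas Reg3g, Isx and Car1 were lowest there among the controls. The groups did not overlap for any of these genes, which was also so for 22.7% of all tested genes in the higher direction and 20.3% in the lower. Most called genes named here and below were chosen partly because their groups do not overlap. Statements that the groups lay apart therefore describe that choice and are no further support. Without control replicate 1 the differences were -6.62 for Reg3g, -4.14 for Retnlb, -5.98 for Isx and -7.53 for Car1.

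**Figure D1:**
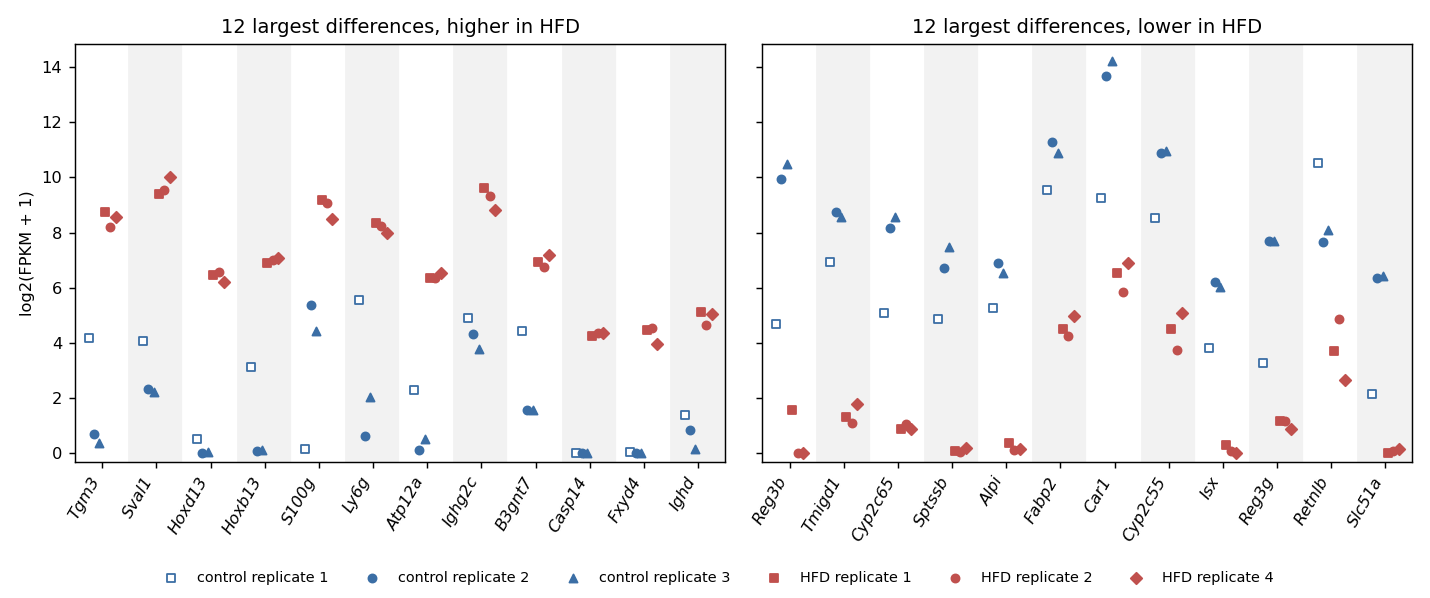
Level in each library (log2(FPKM + 1), vertical axis) of the 12 called genes with the largest difference in each direction (horizontal axis), control in blue and HFD in red, each symbol 1 library. For each gene the 3 HFD symbols lie on 1 side of all 3 control symbols, as the choice of genes required. Control replicate 1 (open squares) is often the control nearest to HFD, as for Tgm3 at 16.9 FPKM against 0.622 and 0.288 FPKM in the other controls.

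Cytochrome P450 enzymes oxidise drugs, fatty acids and other small molecules, and close relatives moved in opposite directions. Of 26 tested members of this list, 5 rose and 4 fell, or 6 and 11 without control replicate 1. Cyp2c65, an intestinal member, measured 0.857, 1.07 and 0.859 FPKM in HFD against 32.8, 287 and 381 FPKM in control (-6.33, SE 0.87, adjusted p = 0.0055). Cyp2c55 measured 21.5, 12.4 and 33.1 FPKM in HFD against 368, 1862 and 1957 FPKM in control. Their relative Cyp2c68 measured 62.9, 58.5 and 61.2 FPKM in HFD against 2.18, 4.17 and 2.87 FPKM in control (3.95, SE 0.19, adjusted p = 0.00033). For Cyp2c68 every HFD library lay above all 3 control libraries, and for Cyp2c65 and Cyp2c55 below them. The Cyp2c genes of the mouse are similar in sequence, so reads may have been split between copies and each value carries that uncertainty. Cyp2d12, Cyp2d10, Cyp2f2 and Cyp4f18 also rose, by 3.00, 2.11, 1.97 and 1.62, while Cyp4f14 and Cyp4f13 fell (-1.68 and -0.61).

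The 250 bases before the start site are printed for the Cyp2c pair that moved apart and for Alpi, the intestinal alkaline phosphatase that detoxifies bacterial lipopolysaccharide, because all 3 hold, in this window, the motif CAAAGTCCA, a form of the site bound by the gut and liver factor HNF4. Sequences are from RefSeq (GRCm38.p6), read 5′ to 3′ on the strand of the gene, with the motif in capitals. Cyp2c65 lies at chr19:39060756-39061005 on the plus strand, Cyp2c68 at chr19:39741102-39741351 on the minus strand and Alpi at chr1:87101607-87101856 on the minus strand.
Cyp2c65: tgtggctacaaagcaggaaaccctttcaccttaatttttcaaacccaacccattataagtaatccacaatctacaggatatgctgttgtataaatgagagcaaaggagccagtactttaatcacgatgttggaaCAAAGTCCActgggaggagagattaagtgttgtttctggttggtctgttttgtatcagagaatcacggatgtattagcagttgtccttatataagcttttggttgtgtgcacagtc
Cyp2c68: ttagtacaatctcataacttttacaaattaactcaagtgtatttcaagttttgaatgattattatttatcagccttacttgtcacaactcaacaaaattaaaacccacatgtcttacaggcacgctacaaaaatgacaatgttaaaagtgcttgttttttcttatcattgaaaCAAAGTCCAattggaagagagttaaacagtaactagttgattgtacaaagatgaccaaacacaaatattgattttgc
Alpi: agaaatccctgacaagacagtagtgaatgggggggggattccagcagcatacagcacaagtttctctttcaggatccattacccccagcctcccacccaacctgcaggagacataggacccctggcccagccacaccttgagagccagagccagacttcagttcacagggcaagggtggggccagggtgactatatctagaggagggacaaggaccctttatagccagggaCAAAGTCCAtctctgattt
The motif ended 107, 68 and 10 bases before the start site of Cyp2c65, Cyp2c68 and Alpi. At equal distance from the start and without gaps, 54 of 250 bases were identical between the Cyp2c promoters. The shared motif lies at different distances, so this count does not measure how similar these promoters are when aligned. Of the 12 genes with the largest decrease, 10 had a promoter in the table and 2 of these, Alpi and Cyp2c65, held the motif. None of the 8 with a promoter among the 12 with the largest increase did, and 0.384% of 32851 promoters hold it in the same window on either strand. CAATAAA, of the kind bound by caudal-type and posterior Hox factors, was in 2 of those 10 (Cyp2c55 and Fabp2) and in 2 of those 8 (Casp14 and Ly6g), against 4.2% of promoters. GATAAG, bound by zinc finger factors of the gut, was in Reg3b among the 10 and in B3gnt7 among the 8, against 6.55%. TTTATNG, another form read by caudal-type factors, was in 4 of those 10 (Alpi, Cyp2c55, Fabp2 and Reg3g) and in 3 of those 8 (Casp14, Ly6g and Tgm3), against 9.81%. It overlaps CAATAAA, whose reverse strand it matches. These 4 motifs, searched on both strands, are all that were searched. Outside the 24 leading genes the promoters of Cyp2c68 and H2-T3 were also read. Cyp2c68 holds CAAAGTCCA and GATAAG, and H2-T3 holds CAAAGTCCA, CAATAAA and TTTATNG. The motifs and the promoters printed were chosen after values and matches were seen, so the matches describe letters and carry no test.

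Position along the body axis is written in the Hox genes, of which those numbered highest in each cluster act nearest the tail. Of 9 tested posterior Hox and Evx genes, 5 rose and 0 fell (8 and 0 without control replicate 1), but 3 of the 9 passed the filter only through HFD and could only come out higher. Of 15 tested anterior members, 0 rose and 8 fell, or 1 and 8 without control replicate 1. For the anterior Hox genes the count that fell was 3 without control replicate 2, 3 without control replicate 3, 2 without HFD replicate 1, 3 without HFD replicate 2 and 2 without HFD replicate 4. Among the posterior genes Hoxd12 and Evx2 were listed at 0 in all 3 control libraries and measured 5.22, 6.36 and 4.62 FPKM and 2.82, 3.02 and 2.78 FPKM in HFD. Hoxa13 was not called: it measured 31.3, 34.1 and 36 FPKM in HFD against 26, 2.06 and 0.385 FPKM in control, with control replicate 1 the nearest to HFD. Hoxb6 measured 1.14, 0.937 and 1.34 FPKM in HFD against 6.08, 45.7 and 64.2 FPKM in control. Hoxb5 measured 1.57, 1.56 and 1.5 FPKM in HFD against 9.9, 16.4 and 14.4 FPKM in control. For Hoxa13 every HFD library lay above all 3 control libraries, and for Hoxb6 and Hoxb5 below them. Hoxd8 measured 1.15, 1.42 and 1.12 FPKM in HFD against 2.94, 5.82 and 5.54 FPKM in control. Cdx2, the caudal-type factor that sets intestinal fate, measured 8.18, 6.66 and 9.45 FPKM in HFD against 73.2, 121 and 141 FPKM in control (-3.59, SE 0.26, adjusted p = 0.00083), and its relative Cdx1 was not called (173 ± 18.1 FPKM in HFD and 173 ± 38.6 FPKM in control). Foxa2, a forkhead factor of gut epithelium, measured 16.4, 14.2 and 19.4 FPKM in HFD against 7, 3.31 and 3.9 FPKM in control. For Foxa2 every HFD library lay above all 3 control libraries, and for Hoxd8 and Cdx2 below them. In all, 3 of 32 tested gut transcription factors rose and 7 fell, or 4 and 11 without control replicate 1, and 8 and 6 when libraries were scaled to the same summed FPKM. For gut epithelial transcription factors the count that fell was 4 without control replicate 2, 3 without control replicate 3, 2 without HFD replicate 1, 2 without HFD replicate 2 and 2 without HFD replicate 4. Because the stretch of colon taken is not labelled, the diet and the position of the pieces cannot be told apart in any result of this comparison.

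Salt and water uptake is the main transport task of the colon, done near the rectum by the channel ENaC and by the hydrogen and potassium pump, and further up by sodium-hydrogen exchangers. Of 26 tested sodium and potassium transport genes, 5 rose and 8 fell (7 and 8 without control replicate 1, and 9 and 6 with equal summed FPKM). For sodium and potassium transport the count that rose was 3 without HFD replicate 4, and the count that fell was 5 without HFD replicate 1. Beside Atp12a and Fxyd4, Scnn1g, the gamma subunit of ENaC, measured 1.32, 2.26 and 1.47 FPKM in HFD against 0, 0.176 and 0.0221 FPKM in control, low in every library and higher in HFD (1.32, SE 0.17, adjusted p = 0.0044). The other 2 subunits were not called. Scnn1a was at 21.2 ± 2.15 FPKM in HFD and 17.3 ± 4.28 FPKM in control. Scnn1b was at 2 ± 0.551 FPKM in HFD and 1.16 ± 0.258 FPKM in control. Kcne3 and Kcnq1, which together form the potassium channel of the basolateral membrane, rose by 1.22 and 0.53.

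Among sodium-hydrogen exchangers, Slc9a3, the main apical one, measured 4.17, 2.79 and 7.11 FPKM in HFD against 76.3, 28.9 and 43.7 FPKM in control (-3.11, SE 0.41, adjusted p = 0.0047). Slc9a2, a second apical exchanger, measured 25.9, 21.8 and 26 FPKM in HFD against 50.7, 88.4 and 98.3 FPKM in control. Slc9a3r1, the scaffold that holds Slc9a3 at the membrane, measured 129, 126 and 109 FPKM in HFD against 295, 421 and 316 FPKM in control. For Slc9a3, Slc9a2 and Slc9a3r1 the highest HFD library lay below the lowest control library. Of the regulators of ENaC, the kinase Sgk1 measured 13.3, 18 and 18.8 FPKM in HFD against 35, 51.5 and 32.5 FPKM in control. The ubiquitin ligase Nedd4l, which removes the channel from the membrane, fell, at 4.27, 3.4 and 3.65 FPKM in HFD against 8.04, 8.42 and 9.17 FPKM in control. The membrane protease St14 fell by 1.09.

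Of 22 tested genes of chloride, bicarbonate and water transport, 4 rose and 5 fell, or 5 and 7 without control replicate 1, and 6 and 5 with equal summed FPKM. For chloride, bicarbonate and water transport the count that rose was 2 without control replicate 2, 2 without control replicate 3, 1 without HFD replicate 1, 2 without HFD replicate 2 and 1 without HFD replicate 4. Best2, a bicarbonate channel of colonic goblet cells, measured 18.9, 19.5 and 17.7 FPKM in HFD against 0.61, 1.7 and 1.34 FPKM in control (3.19, SE 0.20, adjusted p = 0.00063). The water channel Aqp4 measured 40.4, 32 and 56.8 FPKM in HFD against 15.5, 6.29 and 10.9 FPKM in control. The calcium-activated chloride channel Ano1 measured 23.9, 24.6 and 27.2 FPKM in HFD against 17.3, 7.17 and 5.07 FPKM in control. For Best2, Aqp4 and Ano1 the lowest HFD library lay above the highest control library. Guca2a, which encodes guanylin, the peptide that switches on chloride and bicarbonate secretion, measured 265, 289 and 358 FPKM in HFD against 3059, 4662 and 4041 FPKM in control (-3.68, SE 0.25, adjusted p = 0.00069). Its relative Guca2b, uroguanylin, fell by 1.84, while their channel target Cftr was at 13.2 ± 3.37 FPKM in HFD and 12.3 ± 1.18 FPKM in control and was not called. Clca4a, the anion exchanger Slc4a2 and the chloride channel Clcn2 fell (-2.89, -1.37 and -1.17).

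Carbonic anhydrases supply the protons and bicarbonate that these exchangers trade. Of 11 tested members 0 rose and 3 fell, or 5 without control replicate 1. Beside Car1, Car8, a family member without enzyme activity, measured 0.9, 0.695 and 0.667 FPKM in HFD against 8.88, 14.9 and 16.4 FPKM in control. Car12, a membrane-bound form, measured 0.849, 0.631 and 0.895 FPKM in HFD against 4.35, 15.8 and 18.5 FPKM in control. Car2, the abundant cytosolic form, was not called (366 ± 29.8 FPKM in HFD and 299 ± 134 FPKM in control).

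Calcium, magnesium and fermentation products showed single members with large differences. S100g, the calcium-binding protein that ferries calcium through absorptive cells, measured 581, 540 and 360 FPKM in HFD against 0.123, 40.4 and 20.8 FPKM in control, and control replicate 1 was close to 0 while the other controls were not. Trpm6, the apical magnesium channel, measured 45.7, 38.2 and 41.9 FPKM in HFD against 10.8, 13.1 and 14.8 FPKM in control. Slc8a1, a sodium-calcium exchanger, measured 1.77, 1.61 and 1.41 FPKM in HFD against 6.99, 6.04 and 7.1 FPKM in control. For S100g and Trpm6 every HFD library lay above all 3 control libraries, and for Slc8a1 below them. The vitamin D receptor Vdr was not called (63.2 ± 7.22 FPKM in HFD and 71.2 ± 20.1 FPKM in control). Of 14 tested genes of short-chain fatty acid handling, 2 rose and 4 fell (2 and 7 without control replicate 1, and 3 and 2 with equal summed FPKM). For short-chain fatty acid transport and receptors the count that fell was 2 without HFD replicate 1, 2 without HFD replicate 2 and 2 without HFD replicate 4. Slc5a8, the sodium-coupled butyrate carrier, measured 57.7, 46.8 and 66.1 FPKM in HFD against 13, 19.9 and 22.7 FPKM in control. Acsm3, a butyrate-activating enzyme, measured 17.6, 15.6 and 17.1 FPKM in HFD against 2.12, 2.33 and 4.07 FPKM in control. Ffar2, a receptor for acetate and propionate, measured 1.05, 1.2 and 1.47 FPKM in HFD against 9.95, 4.87 and 4.97 FPKM in control, highest in control replicate 1. For Slc5a8 and Acsm3 every HFD library lay above all 3 control libraries, and for Ffar2 below them. Slc16a1, the proton-coupled carrier, was not called (98.2 ± 7.7 FPKM in HFD and 99.3 ± 46.8 FPKM in control).

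**Figure D2:**
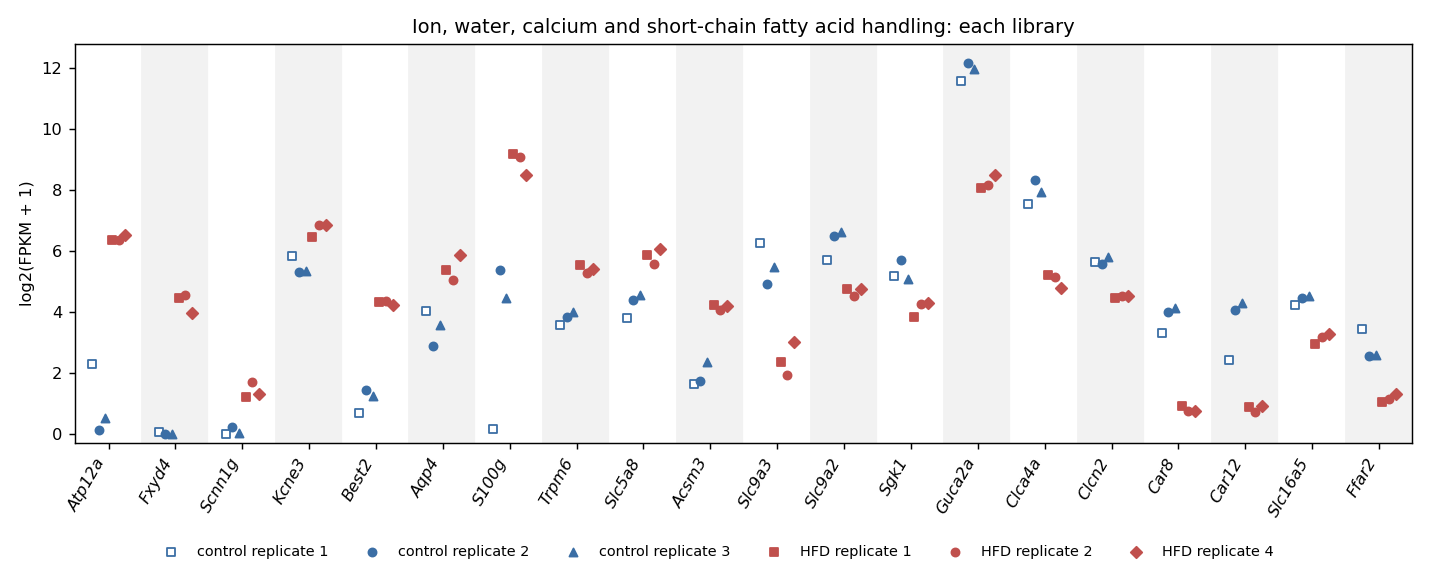
Level in each library (log2(FPKM + 1), vertical axis) of 20 genes of ion, water, calcium and short-chain fatty acid handling (horizontal axis), control in blue and HFD in red, each symbol 1 library. The 10 genes on the left are higher in HFD and the 10 on the right lower. The groups do not overlap, a condition of the rule by which most were named. The controls of S100g are spread from 0.123 to 40.4 FPKM.

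Brush border genes encode the digestive enzymes of the absorptive surface and the proteins that build its microvilli. Of 32 tested members 1 rose and 13 fell, or 2 and 19 without control replicate 1. For brush border genes the count that fell was 8 without control replicate 2, 7 without HFD replicate 1, 6 without HFD replicate 2 and 5 without HFD replicate 4. Tmigd1, an adhesion protein of the brush border, measured 1.5, 1.16 and 2.48 FPKM in HFD against 120, 431 and 375 FPKM in control. Slc3a1, a subunit of the carrier for cystine and dibasic amino acids, measured 0.54, 0.319 and 1.11 FPKM in HFD against 11.5, 28.4 and 29.5 FPKM in control. Mep1a, a subunit of the protease meprin, measured 38.2, 29.9 and 40.6 FPKM in HFD against 85.9, 183 and 173 FPKM in control. For Tmigd1, Slc3a1 and Mep1a the highest HFD library lay below the lowest control library. Cdhr2, a cadherin that links microvilli, measured 83.9, 73.3 and 70.8 FPKM in HFD against 147, 277 and 258 FPKM in control. Tm4sf20 was the member that rose, by 1.14. The aminopeptidase Anpep was at 7.96 ± 0.644 FPKM in HFD and 51.6 ± 84.5 FPKM in control, with 2.13, 149 and 3.56 FPKM in the control libraries, and was not called. Control replicate 2, which held the most small intestinal RNA, set that mean, and without it Anpep was called higher, by 1.24 (adjusted p = 0.021).

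Genes that take up dietary fat and package it were called in 1 direction with all 6 libraries. More of them were called lower without control replicate 1, as was the share of all tested genes, at 16.5% against 8.86%. Of 31 tested members of uptake and lipoprotein assembly, 0 rose and 5 fell, against 1 and 14 without control replicate 1. For fatty acid and sterol uptake and lipoprotein assembly the count that fell was 3 without HFD replicate 1, 2 without HFD replicate 2 and 2 without HFD replicate 4. Slc27a4, a fatty acid transport protein of enterocytes, measured 6.02, 7.39 and 7.08 FPKM in HFD against 16.8, 52.9 and 43.2 FPKM in control. Fabp1, the liver-type binding protein, measured 0.579, 0.202 and 0 FPKM in HFD against 6.17, 1.79 and 3.58 FPKM in control. Apoc3, an apolipoprotein of liver and intestine, measured 0.526, 0.055 and 0.169 FPKM in HFD against 4, 5.66 and 4.56 FPKM in control. For Slc27a4, Fabp1 and Apoc3 the highest HFD library lay below the lowest control library. Fabp4, the binding protein of fat cells and macrophages, was at 12.6 ± 12.3 FPKM in HFD and 87.2 ± 103 FPKM in control and was not called. Of 36 tested genes of fatty acid oxidation and ketogenesis, 2 rose and 7 fell, against 2 and 30 without control replicate 1. For fatty acid oxidation and ketogenesis the count that fell was 3 without control replicate 2, 4 without control replicate 3, 3 without HFD replicate 1, 3 without HFD replicate 2 and 3 without HFD replicate 4. Pdk4, which holds back pyruvate oxidation in mitochondria, and the oxidation protein Etfb fell (-2.43 and -2.07). Acaa1b, a peroxisomal thiolase, measured 0.489, 0.284 and 0.233 FPKM in HFD against 4.83, 85.6 and 71 FPKM in control. The members that rose were Ppargc1a, a coactivator that drives mitochondrial genes, at 11.1, 9.91 and 10.3 FPKM in HFD against 2.47, 3.29 and 3.57 FPKM in control, and Oxct1, the enzyme that burns ketone bodies, at 71.5, 74.4 and 78.3 FPKM in HFD against 51.8, 40.1 and 41 FPKM in control. Ppara and Cpt1a, the nuclear receptor and the gatekeeper enzyme of the pathway, were not called, but both were called lower without control replicate 1. Ppara measured 0.417, 0.451 and 0.64 FPKM in HFD against 0.69, 2.91 and 3.19 FPKM in control.

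Genes of fat synthesis make, desaturate and join fatty acids and store them in droplets. Of 39 tested members of fatty acid and triglyceride synthesis and lipid droplets, 4 rose and 14 fell, or 5 and 25 without control replicate 1. For fatty acid and triglyceride synthesis and lipid droplets the count that fell was 9 without HFD replicate 2 and 8 without HFD replicate 4. Fads2, the desaturase that opens the path from dietary linoleic acid to longer polyunsaturated fatty acids, measured 119, 120 and 118 FPKM in HFD against 30.4, 18.5 and 22.6 FPKM in control (2.30, SE 0.19, adjusted p = 0.0011), and the 3 HFD libraries lay within 2 FPKM of each other. Scd2, a desaturase that makes oleate, measured 133, 207 and 139 FPKM in HFD against 54.4, 54.6 and 70.6 FPKM in control. Elovl7, an elongase, measured 33.4, 39.5 and 37.6 FPKM in HFD against 11, 14.3 and 18.6 FPKM in control. For Fads2, Scd2 and Elovl7 the lowest HFD library lay above the highest control library. Acly, which makes cytosolic acetyl-CoA, measured 55, 57 and 56.5 FPKM in HFD against 16.9, 40.8 and 23.6 FPKM in control. Of the enzymes of triglyceride assembly, those named here fell. Mogat2 measured 0.0872, 0.152 and 0.249 FPKM in HFD against 1.28, 15.6 and 5.47 FPKM in control. Dgat2 measured 11.9, 11.6 and 10.2 FPKM in HFD against 26.9, 89.6 and 43.5 FPKM in control. Lpin2 measured 3.13, 2.85 and 2.86 FPKM in HFD against 14.4, 27.3 and 25.8 FPKM in control. For Mogat2, Dgat2 and Lpin2 the highest HFD library lay below the lowest control library. Mgll, which breaks down monoglycerides, Elovl6 and Me1 fell (-2.36, -2.09 and -2.72). Plin4, a droplet coat protein abundant in fat cells, fell by 1.63. In cholesterol synthesis 0 of 26 tested genes rose and 1, Insig2, fell, by 0.91, or 7 fell without control replicate 1. Hmgcs1, an early enzyme of the pathway, was at 50.6 ± 10.1 FPKM in HFD and 52.6 ± 16.2 FPKM in control.

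Bile acids are taken up and passed to blood by a chain of carriers. Of 14 tested members of this list 0 rose and 6 fell, or 1 and 11 without control replicate 1. For bile acid transport and sensing the count that fell was 2 without control replicate 2, 2 without control replicate 3, 3 without HFD replicate 1, 2 without HFD replicate 2 and 2 without HFD replicate 4. Slc51a and Slc51b are the 2 subunits of the exporter that passes bile acids to blood. Slc51a measured 0, 0.0523 and 0.107 FPKM in HFD against 3.49, 81.4 and 84.6 FPKM in control. Slc51b measured 16.2, 21 and 13.1 FPKM in HFD against 75.3, 133 and 120 FPKM in control. The efflux pump Abcb1a and the nuclear receptor partner Rxra fell (-1.95 and -1.21). Slc10a2, the ileal uptake carrier, measured 0.411, 0.389 and 1 FPKM in HFD against 1.64, 46.5 and 38.7 FPKM in control and was not called, although the groups did not overlap.

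Retinoid genes, which turn vitamin A into the signal retinoic acid, went in both directions. Of 25 tested members 4 rose and 8 fell, or 4 and 11 without control replicate 1. For retinoid metabolism the count that fell was 5 without HFD replicate 1, 3 without HFD replicate 2 and 3 without HFD replicate 4. Adh1, which oxidises retinol and ethanol, measured 465, 457 and 464 FPKM in HFD against 82.2, 33.9 and 23.3 FPKM in control (3.49, SE 0.43, adjusted p = 0.0038), with HFD values within 8 FPKM of each other. Rdh16, a retinol dehydrogenase, rose by 1.84. Aldh1a1, which makes retinoic acid from retinal, measured 8.47, 6.15 and 7.7 FPKM in HFD against 32, 149 and 169 FPKM in control. Dhrs9, another dehydrogenase, measured 0.286, 0.638 and 0.334 FPKM in HFD against 4.62, 7.24 and 9.47 FPKM in control. Lrat, which stores retinol as esters, measured 0.528, 0.271 and 0.342 FPKM in HFD against 1.2, 2.76 and 4.53 FPKM in control. For Aldh1a1, Dhrs9 and Lrat the highest HFD library lay below the lowest control library.

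Conjugation enzymes and drug pumps gave 3 members higher and 7 lower of 42 tested. Without control replicate 1 these counts were 3 and 28, and with equal summed FPKM 6 and 9. For conjugation enzymes and xenobiotic transporters the count that fell was 0 without control replicate 2, 0 without control replicate 3, 0 without HFD replicate 1, 0 without HFD replicate 2 and 0 without HFD replicate 4. Ugt2b5, a glucuronosyl transferase, measured 0, 0.06 and 0.246 FPKM in HFD against 2.25, 25 and 35.7 FPKM in control. Ces2a, a carboxylesterase, measured 36.7, 27.6 and 33.9 FPKM in HFD against 67.3, 239 and 201 FPKM in control. Nqo1, a quinone reductase, measured 6.46, 6.25 and 8.31 FPKM in HFD against 12.2, 52 and 69.8 FPKM in control. For Ugt2b5, Ces2a and Nqo1 the highest HFD library lay below the lowest control library. In all 3 genes control replicate 1 lay between the other controls and HFD. Ces2g, a relative of Ces2a, and the receptor Ahr rose by 1.30 and 0.67. Among 29 tested sphingolipid enzymes 3 rose and 5 fell, or 4 and 11 without control replicate 1, and 4 and 3 with equal summed FPKM. For sphingolipid enzymes the count that fell was 2 without control replicate 2, 3 without control replicate 3, 1 without HFD replicate 1, 2 without HFD replicate 2 and 1 without HFD replicate 4. Sptssb, a small subunit that steers serine palmitoyltransferase, the first enzyme of sphingolipid synthesis, measured 0.0584, 0.0305 and 0.156 FPKM in HFD against 28.5, 105 and 175 FPKM in control, while the main subunits Sptlc1 and Sptlc2 and the other small subunit Sptssa were not called (49.3 ± 2.8 FPKM in HFD and 46.4 ± 6.42 FPKM in control for Sptssa). Fa2h, which hydroxylates sphingolipids, and B4galnt1, a ganglioside enzyme, fell (-2.16 and -1.53), and the ceramidase Asah1 and the sphingomyelinase Smpd3 both rose by 0.83.

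Goblet cell genes did not move as a block. Of 29 tested members 4 rose and 6 fell (5 and 7 without control replicate 1, and 6 and 6 with equal summed FPKM). With all libraries 13.8% rose and 20.7% fell, against 10.9% and 8.86% of all genes. For goblet cell and mucus genes the count that rose was 2 without HFD replicate 1, 2 without HFD replicate 2 and 2 without HFD replicate 4. The 4 goblet cell markers summed to 1983, 1951 and 1790 FPKM in HFD against 610, 1983 and 2329 FPKM in control. Muc2, the gel-forming mucin, measured 117, 100 and 96.8 FPKM in HFD against 405, 263 and 364 FPKM in control, and B3gnt6 and Gcnt3 build the core sugars of mucin. B3gnt6 measured 0.36, 0.447 and 0.458 FPKM in HFD against 25.8, 9.88 and 9.14 FPKM in control. Gcnt3 measured 11.6, 12.1 and 12.9 FPKM in HFD against 43.8, 87.8 and 99.3 FPKM in control. For Muc2, B3gnt6 and Gcnt3 the highest HFD library lay below the lowest control library. Spdef, the transcription factor of goblet cell maturation, measured 8.93, 8.63 and 9.12 FPKM in HFD against 40.4, 18.1 and 20.5 FPKM in control. Clca1, a protein secreted with mucus, measured 460, 478 and 429 FPKM in HFD against 74.9, 207 and 218 FPKM in control. Spink1, a protease inhibitor, measured 470, 434 and 394 FPKM in HFD against 10.5, 52.3 and 50.4 FPKM in control. For Clca1 and Spink1 every HFD library lay above all 3 control libraries, and for Spdef below them. Muc1, a transmembrane mucin, measured 6.14, 4.94 and 4.5 FPKM in HFD against 1.58, 0.141 and 0.422 FPKM in control. The mucus proteins Fcgbp and Zg16 were not called, with Zg16 at 1236, 1193 and 1108 FPKM in HFD against 88.7, 1401 and 1606 FPKM in control.

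Among 29 tested antimicrobial and Reg lectin genes 8 rose and 4 fell, or 10 and 5 without control replicate 1. For antimicrobial and Reg lectin genes the count that fell was 1 without control replicate 2, 2 without HFD replicate 1, 1 without HFD replicate 2 and 1 without HFD replicate 4. Slpi and Wfdc2 are protease inhibitors of mucosal surfaces. Slpi measured 48.3, 59.2 and 34.6 FPKM in HFD against 4.24, 9.11 and 4.14 FPKM in control. Wfdc2 measured 171, 183 and 185 FPKM in HFD against 46.9, 20 and 15 FPKM in control. Lyz2, the lysozyme of myeloid cells, measured 351, 338 and 335 FPKM in HFD against 97.8, 123 and 99.3 FPKM in control. For Slpi, Wfdc2 and Lyz2 the lowest HFD library lay above the highest control library. Pglyrp1, which binds bacterial peptidoglycan, measured 214, 233 and 218 FPKM in HFD against 102, 109 and 108 FPKM in control. Reg4, another lectin of the family, was not called (305 ± 51.3 FPKM in HFD and 242 ± 197 FPKM in control). Of the epithelial oxidases, Nox1 rose and Duox2 fell. Nox1 measured 8.59, 7.15 and 9.12 FPKM in HFD against 1.12, 0.519 and 0.579 FPKM in control. Duox2 measured 26.5, 26 and 22.5 FPKM in HFD against 51.8, 45.5 and 36.6 FPKM in control.

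Hormone cells of the gut release peptides that govern secretion, motility and appetite. Of 26 tested members 4 rose and 6 fell, or 7 and 6 without control replicate 1, and 4 and 4 with equal summed FPKM. For enteroendocrine genes the count that rose was 1 without control replicate 2, 1 without HFD replicate 1, 2 without HFD replicate 2 and 1 without HFD replicate 4, and the count that fell was 2 without control replicate 2, 1 without HFD replicate 1, 2 without HFD replicate 2 and 1 without HFD replicate 4. Pyy, an appetite-reducing peptide of the distal gut, measured 162, 194 and 138 FPKM in HFD against 113, 48 and 41.9 FPKM in control. Ddc, an enzyme of serotonin synthesis, measured 20, 20.8 and 22.8 FPKM in HFD against 4.05, 5.16 and 6.53 FPKM in control. Sct, which encodes secretin, measured 2.31, 8.9 and 2.48 FPKM in HFD against 19.4, 85.5 and 85.5 FPKM in control. For Pyy and Ddc every HFD library lay above all 3 control libraries, and for Sct below them. Nts, neurotensin, measured 0.214, 0 and 0.0458 FPKM in HFD against 1.93, 26.3 and 14.9 FPKM in control. Sst, somatostatin, measured 16.5, 16.3 and 14.7 FPKM in HFD against 139, 122 and 92.1 FPKM in control. Gcg, the precursor of the glucagon-like peptides, was at 19.7 ± 6.35 FPKM in HFD and 22.8 ± 17.3 FPKM in control and was not called. Insl5, a peptide of distal colonic hormone cells, measured 104, 115 and 120 FPKM in HFD against 73.6, 1.09 and 1.19 FPKM in control and was not called, with control replicate 1 below HFD and far above the other controls. Tuft cell genes gave 3 higher and 2 lower of 21 tested, and the same counts without control replicate 1. These are 14.3% and 9.52%, near the 10.9% and 8.86% of all genes. The defining markers Dclk1, Trpm5 and Pou2f3 were not called, and Sh2d6 and Avil fell (-1.42 and -0.84).

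At the base of the crypt, 6 of 37 tested stem cell and Wnt genes rose and 1 fell. Without control replicate 1 these counts were 17 and 3, and with equal summed FPKM 11 and 1. With all libraries 16.2% rose and 2.7% fell, against 10.9% and 8.86% of all genes. For crypt stem cell and Wnt genes the count that rose was 2 without control replicate 2, 1 without HFD replicate 1, 2 without HFD replicate 2 and 1 without HFD replicate 4. Ascl2, a stem cell transcription factor, measured 8.21, 12 and 11.1 FPKM in HFD against 5.25, 3.78 and 1.75 FPKM in control. Sox9 measured 11.6, 10.6 and 13.7 FPKM in HFD against 8.55, 4.07 and 6.09 FPKM in control. Bmp2, a differentiation signal, measured 42.7, 34.8 and 37.8 FPKM in HFD against 9.18, 10.6 and 13 FPKM in control. For Ascl2, Sox9 and Bmp2 the lowest HFD library lay above the highest control library. Bmp3 fell by 1.57, and the stem cell receptor Lgr5 was not called (0.878 ± 0.106 FPKM in HFD and 0.741 ± 0.305 FPKM in control). Of 40 tested cell cycle genes 3 rose, among them Ccnd2 by 0.93, and 0 fell, or 3 and 1 without control replicate 1, and 15 and 0 with equal summed FPKM. For cell cycle genes the count that rose was 13 without control replicate 3 and 0 without HFD replicate 4. Mki67, a marker of dividing cells, was at 24.3 ± 2.53 FPKM in HFD and 16.1 ± 3.65 FPKM in control and was not called, but was called higher without control replicate 1 (0.67, adjusted p = 0.047).

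Junction genes seal the gaps between epithelial cells. Of 34 tested members 5 rose and 8 fell (6 and 16 without control replicate 1, and 7 and 6 with equal summed FPKM). For claudins and junction genes the count that rose was 2 without control replicate 2, 3 without control replicate 3, 3 without HFD replicate 1, 2 without HFD replicate 2 and 2 without HFD replicate 4, and the count that fell was 4 without control replicate 2, 2 without HFD replicate 1, 3 without HFD replicate 2 and 2 without HFD replicate 4. Cldn8, a sealing claudin of the distal nephron and colon, measured 60.9, 69.9 and 70.9 FPKM in HFD against 7.14, 6.02 and 11.1 FPKM in control (2.94, SE 0.21, adjusted p = 0.00083). Cldn2, which forms a pore for cations, measured 32.4, 31.5 and 34.2 FPKM in HFD against 24.5, 13.2 and 17.4 FPKM in control. Cldn4 measured 12.3, 17.3 and 11.8 FPKM in HFD against 67.2, 100 and 52.4 FPKM in control. For Cldn8 and Cldn2 every HFD library lay above all 3 control libraries, and for Cldn4 below them. Cldn15, another pore-forming claudin, measured 20.6, 18.5 and 21.6 FPKM in HFD against 49.6, 45.2 and 48.8 FPKM in control, and Cldn3 and Cldn23 fell (-0.87 and -1.05).

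Tgm3, a transglutaminase that cross-links cornified cells, measured 425, 293 and 378 FPKM in HFD against 16.9, 0.622 and 0.288 FPKM in control. Of the 6 squamous markers of the anus, Krt5, Krt13, Trp63, Ivl and Lor stayed at or below 0.3 FPKM in every library and Krt14 measured 1.15, 0.444 and 0.325 FPKM in HFD against 0.435, 1.16 and 0.714 FPKM in control, with no order by diet. Of 25 tested keratin, cornification and squamous genes 6 rose and 5 fell, or 6 and 7 without control replicate 1. For keratins, cornification and squamous genes the count that rose was 3 without control replicate 2, 3 without HFD replicate 1 and 3 without HFD replicate 2. Scel, a protein of the cornified envelope, measured 2.17, 2.49 and 2.97 FPKM in HFD against 0.423, 0.369 and 0.528 FPKM in control. Sprr1a, another, measured 3.84, 6.57 and 5.24 FPKM in HFD against 84.3, 147 and 158 FPKM in control. Krt20, the keratin of mature colonocytes, measured 171, 209 and 172 FPKM in HFD against 748, 898 and 1062 FPKM in control. For Scel every HFD library lay above all 3 control libraries, and for Sprr1a and Krt20 below them. Of the 4 colonocyte markers Krt20 and Car1 fell, while Slc26a3 and Aqp8 were not called. Slc26a3 measured 95.9, 82.3 and 114 FPKM in HFD against 93.4, 52.6 and 73.9 FPKM in control. Aqp8 measured 629, 604 and 534 FPKM in HFD against 1365, 627 and 596 FPKM in control. Of 15 tested Ly6 family genes, which encode small surface proteins, 8 rose and 2 fell, or 8 and 3 without control replicate 1. Ly6a, also known as Sca-1, measured 990, 1348 and 893 FPKM in HFD against 327, 155 and 173 FPKM in control. Ly6e measured 245, 342 and 236 FPKM in HFD against 93.8, 60.3 and 63.1 FPKM in control, and Ly6g6c fell by 1.54. Several Ly6 genes are near-identical copies, so their values may share reads.

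**Figure D3:**
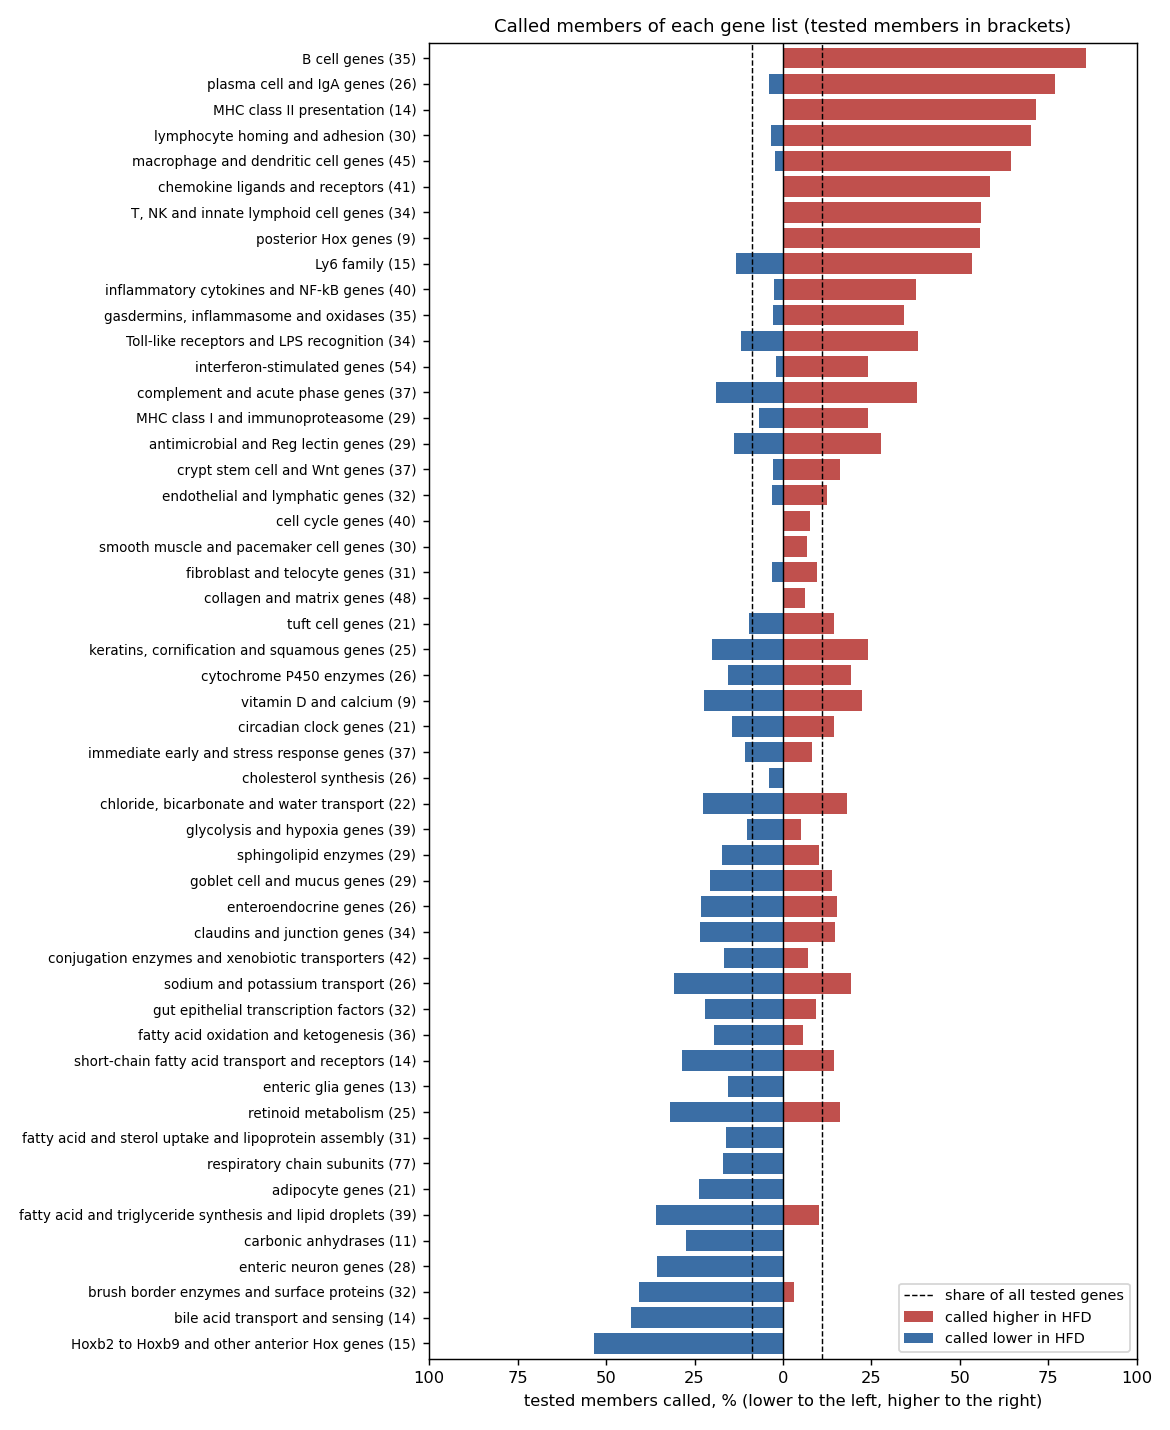
Share of tested members of each gene list called higher in HFD (red, to the right) or lower (blue, to the left), in percent, with the number of tested members in brackets and dashed lines at the shares of all tested genes, 10.9% higher and 8.86% lower. B cell genes stand at 85.7% higher, and brush border genes at 40.6% lower. Lists with fewer than 9 tested members, and the hepatocyte list written after values were seen, are left out. The lists shown were also chosen with earlier results of these data known, so the shares are a description.

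Genes of B cells, which make antibodies and gather in follicles of the gut wall, rose with few exceptions. Of 35 tested members 30 rose and 0 fell (32 and 0 without control replicate 1), with a median log2 difference of 1.86. Of the 35, 9 passed the filter only through HFD and could only come out higher, so the count is a description. Ms4a1, a surface protein of mature B cells, measured 8.69, 7.7 and 7.98 FPKM in HFD against 0.808, 0.235 and 0.246 FPKM in control. Cd79a and Cd79b carry the signal of the B cell receptor. Cd79a measured 40, 35.9 and 20.9 FPKM in HFD against 5.57, 1.99 and 1.22 FPKM in control. Cd79b measured 34.1, 28.1 and 31.4 FPKM in HFD against 4.56, 2.03 and 0.462 FPKM in control. Cr2, the complement receptor of follicular B and dendritic cells, measured 3.3, 2.94 and 4.02 FPKM in HFD against 0.152, 0.0486 and 0.0243 FPKM in control (2.03, SE 0.14, adjusted p = 0.00069). For Cd79a, Cd79b and Cr2 the lowest HFD library lay above the highest control library. Ighd, the constant region of naive B cells, measured 33.4, 24.1 and 32.3 FPKM in HFD against 1.61, 0.799 and 0.104 FPKM in control. Pou2af1, a coactivator of antibody genes, measured 31.4, 21.4 and 22.3 FPKM in HFD against 3, 2.36 and 1.4 FPKM in control. In whole tissue, more cells of a type and more RNA per cell cannot be told apart, here and below.

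Plasma cell and IgA genes had 20 of 26 tested members that rose and 1 that fell. For plasma cell and IgA genes the count that rose was 13 without HFD replicate 1 and 13 without HFD replicate 4. Without control replicate 1, 20 rose and 2 fell. Igha, the heavy chain of IgA, the main antibody of the gut, measured 4266, 3164 and 3501 FPKM in HFD against 300, 992 and 566 FPKM in control (2.71, SE 0.44, adjusted p = 0.01). Jchain, which joins IgA into dimers, measured 1023, 799 and 846 FPKM in HFD against 95.6, 184 and 150 FPKM in control. Ighg2c, of an IgG class that activates complement, measured 790, 634 and 453 FPKM in HFD against 28.7, 19.2 and 12.9 FPKM in control. For Igha, Jchain and Ighg2c the lowest HFD library lay above the highest control library. Ighg1 measured 23.1, 28.8 and 12.2 FPKM in HFD against 0.908, 1.15 and 0.892 FPKM in control. Ighg2b measured 343, 87.2 and 79.9 FPKM in HFD against 14.1, 9.76 and 12.4 FPKM in control, where HFD replicate 1 alone stood far above the other 2. Xbp1, the factor that expands the secretory pathway of plasma cells, rose by 0.51, while Sdc1, a surface proteoglycan of plasma cells and also of epithelium, fell by 0.88. All immunoglobulin transcripts together took 8.99% ± 1.75 (SD, n = 3) of all FPKM in HFD, against 0.856% ± 0.437 in control (exact permutation p = 0.1, two-sided, the smallest that 3 against 3 allow).

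Homing genes draw lymphocytes to follicles and hold them there. Of 30 tested homing and adhesion genes 21 rose and 1 fell (25 and 2 without control replicate 1), but 6 of the 30 passed the filter only through HFD and could only come out higher. Cxcl13, the chemokine that forms B cell follicles, measured 35.5, 36.2 and 36.2 FPKM in HFD against 10.7, 13.3 and 8.1 FPKM in control. Its receptor Cxcr5 measured 4.03, 2.73 and 3.17 FPKM in HFD against 0.441, 0.218 and 0.0397 FPKM in control. Ccl19, a chemokine of T cell zones, measured 4.92, 5.14 and 6.39 FPKM in HFD against 0.271, 0.228 and 0 FPKM in control. For Cxcl13, Cxcr5 and Ccl19 the lowest HFD library lay above the highest control library. Ccr7, the receptor of Ccl19, measured 3.83, 4.48 and 3.81 FPKM in HFD against 1.16, 0.6 and 0.468 FPKM in control. Ccl20, made by the epithelium over follicles, measured 7.28, 7.85 and 8.12 FPKM in HFD against 0.372, 1.3 and 0.883 FPKM in control. Ccr6, the receptor of Ccl20, measured 3.29, 3.2 and 3.96 FPKM in HFD against 0.203, 0.199 and 0.0285 FPKM in control. For Ccr7, Ccl20 and Ccr6 the lowest HFD library lay above the highest control library. Gp2, an uptake receptor of the M cells that sample bacteria above follicles, measured 3.82, 2.71 and 3.74 FPKM in HFD against 0.206, 0.0991 and 0.0661 FPKM in control. Madcam1 and Vcam1 are vessel proteins that catch passing lymphocytes. Madcam1 measured 3.01, 2.64 and 4.02 FPKM in HFD against 1.19, 1.01 and 0.69 FPKM in control. Vcam1 measured 5.44, 5.74 and 5.83 FPKM in HFD against 1.73, 1.59 and 1.33 FPKM in control. In every one of these genes the lowest HFD library was above the highest control library. Whether the HFD pieces held more follicles than the control pieces was not tested.

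**Figure D4:**
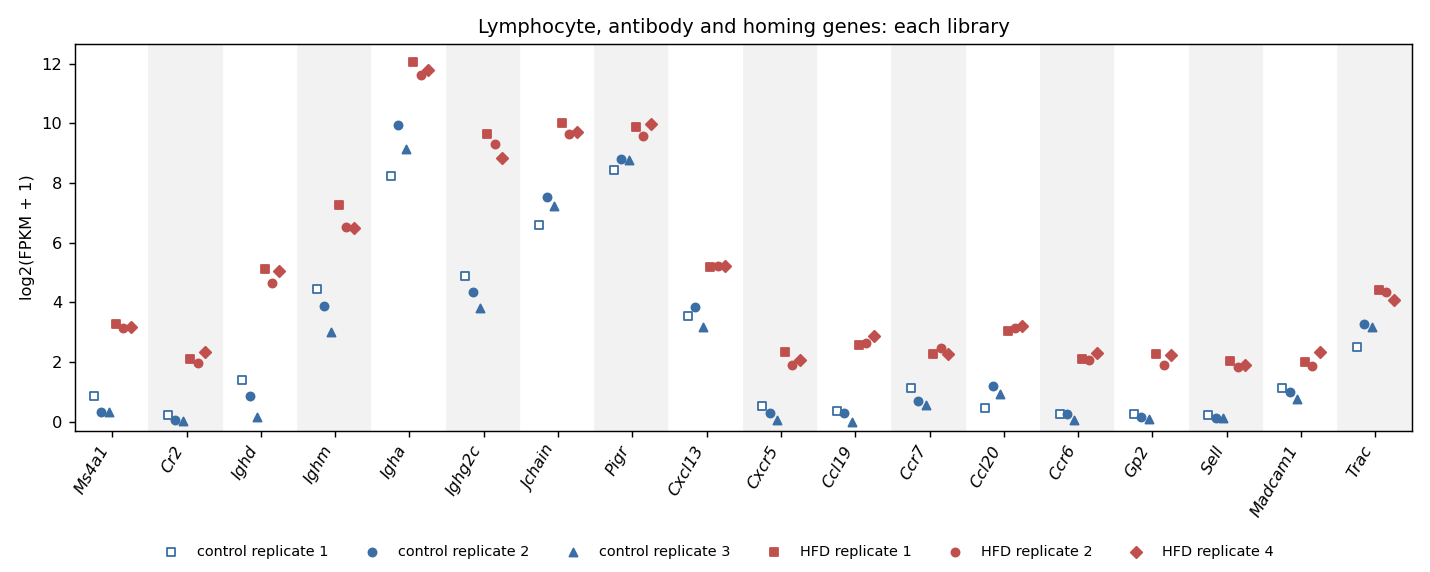
Level in each library (log2(FPKM + 1), vertical axis) of 18 genes of B cells, antibodies, lymphocyte homing and T cells (horizontal axis), control in blue and HFD in red, each symbol 1 library. All 18 genes are higher in each HFD library than in each control library, and most were named by a rule that asks for this. The gap is wide for Ighg2c (453 FPKM or more against 28.7 FPKM or less) and narrower for Trac (16 or more against 8.75 or less).

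Of 34 tested T cell, natural killer and innate lymphoid genes, with a median difference of 0.67, 19 rose and 0 fell, also without control replicate 1. Of the 34, 3 passed the filter only through HFD and could only come out higher. For T and innate lymphoid genes the count that rose was 7 without HFD replicate 1, 8 without HFD replicate 2 and 9 without HFD replicate 4. Trac, the constant region of the T cell receptor, measured 20.4, 19.4 and 16 FPKM in HFD against 4.72, 8.75 and 7.98 FPKM in control. Cd4, the co-receptor of helper cells, measured 6.61, 4.59 and 4.89 FPKM in HFD against 1.05, 2.21 and 1.69 FPKM in control. Cd28, a co-stimulator, measured 1.94, 1.45 and 2.08 FPKM in HFD against 0.24, 0.388 and 0.378 FPKM in control. For Trac, Cd4 and Cd28 the lowest HFD library lay above the highest control library. Cd3d, Cd3e and Tcf7 rose by 0.57, 0.77 and 1.11.

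Macrophage and dendritic cell genes had 29 of 45 tested members that rose and 1 that fell, with a median of 1.11 (29 and 2 without control replicate 1). Cd68, a lysosomal protein of macrophages, measured 27.6, 22.4 and 19.5 FPKM in HFD against 8.05, 8.82 and 6.78 FPKM in control. Adgre1, the antigen F4/80, measured 6.29, 6.04 and 6.31 FPKM in HFD against 2.38, 2.24 and 2.14 FPKM in control. C1qb, which starts the complement cascade, measured 99.1, 107 and 101 FPKM in HFD against 35.8, 40.9 and 27.3 FPKM in control. For Cd68, Adgre1 and C1qb the lowest HFD library lay above the highest control library. Fcgr4, a receptor for IgG, measured 10.2, 16.8 and 6.27 FPKM in HFD against 1.55, 3.47 and 3.1 FPKM in control. Clec7a, the receptor dectin-1 for fungal glucans, rose by 1.54. Lgals3, a lectin that colonocytes also make, fell by 1.64. Cma1, a mast cell protease, measured 9.39, 12.9 and 14.6 FPKM in HFD against 0, 0.424 and 0 FPKM in control. Other mast cell proteases, Mcpt1 and Mcpt2, were not called.

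MHC class II molecules present antigen on B cells and myeloid cells. Of 14 tested members 10 rose and 0 fell, or 11 and 0 without control replicate 1. For MHC class II presentation the count that rose was 5 without control replicate 2, 5 without HFD replicate 1 and 5 without HFD replicate 2. H2-Aa and Cd74 are a chain of the presenting molecule and its chaperone. H2-Aa measured 188, 197 and 156 FPKM in HFD against 94.1, 58.1 and 42.6 FPKM in control. Cd74 measured 1005, 1025 and 706 FPKM in HFD against 441, 297 and 241 FPKM in control. H2-Ob and H2-DMb2 edit the peptides in B cells and other presenting cells. H2-Ob measured 8.99, 7.53 and 9.61 FPKM in HFD against 1.14, 0.368 and 0.381 FPKM in control. H2-DMb2 measured 13.9, 14.3 and 17.2 FPKM in HFD against 2.12, 1.74 and 1.02 FPKM in control. Of 29 tested MHC class I and immunoproteasome genes 7 rose and 2 fell. Without control replicate 1 these counts were 11 and 4, and with equal summed FPKM 12 and 2. The classical genes H2-K1 and H2-D1 were not called (850 ± 76.1 FPKM in HFD and 719 ± 35.8 FPKM in control for H2-K1). H2-T3, which encodes the thymus leukaemia antigen of intestinal epithelium, measured 0.528, 0.409 and 0.775 FPKM in HFD against 13.7, 28.1 and 32.4 FPKM in control (-3.95, SE 0.31, adjusted p = 0.001). Related H2 genes are similar in sequence, so reads may have been divided between them.

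Chemokine genes rose in 24 of 41 tested members and fell in 0, or in 24 and 1 without control replicate 1. Of the 41, 4 passed the filter only through HFD and could only come out higher. Ccl7, which attracts monocytes, measured 17.2, 56.4 and 27.7 FPKM in HFD against 2.2, 2.88 and 0.907 FPKM in control, with HFD replicate 2 well above the other HFD libraries. Ccl21a, made by lymphatic vessels, measured 131, 122 and 149 FPKM in HFD against 54.4, 40.2 and 23.9 FPKM in control. Ccl2 measured 2.58, 3.67 and 2.11 FPKM in HFD against 1.09, 1.28 and 0.464 FPKM in control. For Ccl7, Ccl21a and Ccl2 the lowest HFD library lay above the highest control library. Of 40 tested inflammatory cytokine and NF-kB genes 15 rose and 1 fell (17 and 4 without control replicate 1). For inflammatory cytokines and NF-kB genes the count that rose was 9 without HFD replicate 1. Il18, an epithelial cytokine released by inflammasomes, measured 83.8, 67.9 and 90.2 FPKM in HFD against 17.5, 14.7 and 19.7 FPKM in control (2.16, SE 0.16, adjusted p = 0.00094). Ltb, a lymphotoxin that shapes lymphoid tissue, measured 9.11, 11.5 and 10.3 FPKM in HFD against 2.25, 4.05 and 2.48 FPKM in control. Tnfaip3, which shuts off NF-kB, measured 11.8, 11.6 and 7.85 FPKM in HFD against 3.32, 2.99 and 3.53 FPKM in control. For Il18, Ltb and Tnfaip3 the lowest HFD library lay above the highest control library. Tnf and Il1b, the classical cytokines of acute inflammation, were not called. Tnf was at 2.46 ± 0.948 FPKM in HFD and 2.07 ± 0.932 FPKM in control. Il1b was at 2.99 ± 1.16 FPKM in HFD and 1.39 ± 0.234 FPKM in control. Il6, named after its values were seen, did not reach the filter.

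Sensors of bacteria gave 13 higher and 4 lower of 34 tested Toll-like receptor and lipopolysaccharide genes, or 13 and 8 without control replicate 1. Of the 34, 5 passed the filter only through HFD and could only come out higher. For Toll-like receptors and LPS recognition the count that rose was 8 without control replicate 2, 8 without HFD replicate 1 and 8 without HFD replicate 4, and the count that fell was 2 without HFD replicate 1 and 2 without HFD replicate 4. Cd14, the co-receptor for lipopolysaccharide, measured 54.7, 65.1 and 59.1 FPKM in HFD against 17.7, 18 and 22.5 FPKM in control. Cd180, a relative of Toll-like receptors on B cells, measured 4.17, 3.54 and 3.61 FPKM in HFD against 0.483, 0.41 and 0.454 FPKM in control. Tlr7 measured 2.8, 2.34 and 2.24 FPKM in HFD against 0.677, 0.533 and 0.615 FPKM in control. For Cd14, Cd180 and Tlr7 the lowest HFD library lay above the highest control library. Tlr2 and Tlr3 were not called. Irak2 and Tollip, which act downstream, fell (-0.71 and -0.68). Of 35 tested gasdermin, inflammasome and oxidase genes 12 rose and 1 fell, or 15 and 4 without control replicate 1. Gsdmc3 and Gsdmc4 are epithelial pore-forming proteins that are near copies of each other. Gsdmc3 measured 153, 217 and 202 FPKM in HFD against 42, 25 and 26 FPKM in control. Gsdmc4 measured 410, 467 and 515 FPKM in HFD against 29.8, 142 and 170 FPKM in control. Cybb, the oxidase of phagocytes, measured 10.5, 9.34 and 9.57 FPKM in HFD against 2.63, 3.16 and 2.26 FPKM in control. For Gsdmc3, Gsdmc4 and Cybb the lowest HFD library lay above the highest control library.

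Of 54 tested interferon-stimulated genes 13 rose and 1 fell (20 and 0 without control replicate 1, and 23 and 0 with equal summed FPKM). For interferon-stimulated genes the count that rose was 5 without control replicate 2, 5 without control replicate 3, 4 without HFD replicate 1, 3 without HFD replicate 2 and 4 without HFD replicate 4. Ifi27l2a measured 379, 717 and 417 FPKM in HFD against 164, 254 and 131 FPKM in control. Slfn2 measured 41, 85.8 and 44.4 FPKM in HFD against 27.4, 12.3 and 11.9 FPKM in control. Trim30a measured 19.1, 32 and 20 FPKM in HFD against 11.8, 5.91 and 7.25 FPKM in control. For Ifi27l2a, Slfn2 and Trim30a the lowest HFD library lay above the highest control library. HFD replicate 2 was the highest library for all 3. In the complement and acute phase list 14 of 37 tested genes rose and 7 fell, or 17 and 9 without control replicate 1. For complement and acute phase genes the count that rose was 7 without HFD replicate 1 and 8 without HFD replicate 2. Members that rose included C1ra, a protease of the complement cascade, at 20.7, 21.1 and 19.1 FPKM in HFD against 8.15, 10 and 6.27 FPKM in control, C4b, a cascade protein, at 34.9, 35.5 and 28.2 FPKM in HFD against 17.1, 11.4 and 8.39 FPKM in control, and the receptor C3ar1, by 1.25. Of the 37, 6 passed the filter only through control and could only come out lower. The members that fell included Saa3, at 0.389, 0.385 and 0.219 FPKM in HFD against 2.35, 13 and 21.1 FPKM in control, and Fga, Fgb, Fgg and Hpx, the fibrinogen chains and haemopexin that the liver secretes.

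A list of 54 hepatocyte genes was written after some of these values had been seen, so its counts are a description and support nothing, and 16 of its tested members passed the filter only through control. Of 42 tested members 2 were called higher and 29 lower (2 and 33 without control replicate 1). Alb, albumin, measured 3.21, 2.4 and 3.51 FPKM in HFD against 71.3, 43.3 and 63 FPKM in control. Ahsg, a plasma glycoprotein, measured 0.17, 0.152 and 0.208 FPKM in HFD against 4.82, 5.8 and 7.34 FPKM in control. Serpina3k measured 0.0778, 0.136 and 0.194 FPKM in HFD against 6.52, 3.85 and 10.1 FPKM in control. For Alb, Ahsg and Serpina3k the highest HFD library lay below the lowest control library. Hpx measured 0.391, 0.335 and 0.686 FPKM in HFD against 7.65, 8.89 and 7.18 FPKM in control. Fga measured 0.124, 0.0741 and 0.171 FPKM in HFD against 2.75, 2.65 and 4.35 FPKM in control. Gc, the carrier of vitamin D in plasma, measured 0, 0.212 and 0.0929 FPKM in HFD against 8.06, 3.08 and 6.77 FPKM in control. For Hpx, Fga and Gc the highest HFD library lay below the lowest control library. All 3 control libraries were above HFD for each of these genes, and control replicate 1 was not apart. Of the members that the bowel also makes, Ttr, transthyretin, measured 49.4, 61.4 and 63.6 FPKM in HFD against 12.8, 6.73 and 14.4 FPKM in control and was higher in HFD. The arginase Arg1 and Cps1, an enzyme of the urea cycle found in liver and gut, were not called. Ahsg, Alb, Serpina3k, Gc, Ttr, Arg1 and Cps1 were named after their values were seen. Whether liver RNA entered the control pieces or the colon itself made these transcripts was not tested.

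Fat cell transcripts were uneven between libraries. Adipoq, the adiponectin of fat cells, measured 18.3, 0.727 and 0.248 FPKM in HFD against 4.22, 131 and 20.5 FPKM in control, so that control replicate 2 and HFD replicate 1 were the high libraries of their groups. Summed over 24 adipocyte genes, levels ran from 225 to 1916 FPKM in control and from 65.4 to 277 FPKM in HFD. Of 21 tested members 0 rose and 5 fell, or 13 without control replicate 1, among them Slc2a4, the insulin-responsive glucose carrier, at 4.86, 4.87 and 4.56 FPKM in HFD against 20.4, 16 and 11.6 FPKM in control. For adipocyte genes the count that fell was 1 without control replicate 2, 3 without HFD replicate 1, 2 without HFD replicate 2 and 1 without HFD replicate 4. Pparg, the factor of fat cells and also of colonocytes, measured 11.1, 11.7 and 11 FPKM in HFD against 16.7, 39.8 and 49.8 FPKM in control. Plin4 and Fabp4 in the lipid lists above are also fat cell genes, and the part of fat tissue in the lipid results was not tested.

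**Figure D5:**
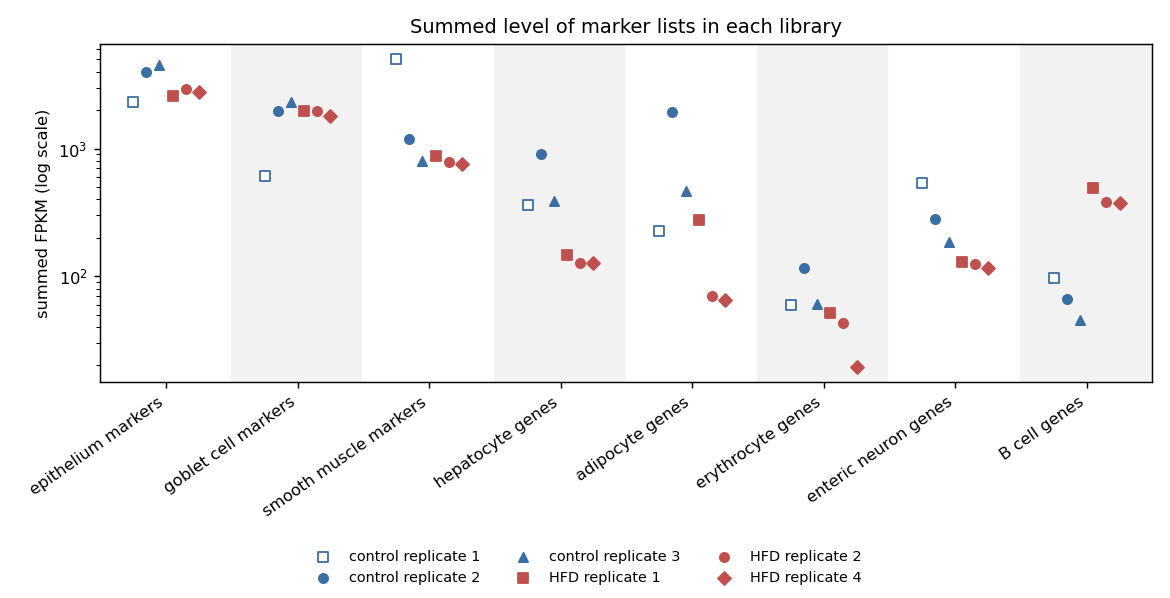
Summed FPKM (vertical axis, log scale) of 8 gene lists (horizontal axis) in each library, control in blue and HFD in red, each symbol 1 library. Smooth muscle markers reach 4996 FPKM in control replicate 1, goblet cell markers are at 610 FPKM there, hepatocyte genes lie above HFD in all 3 controls, and adipocyte genes vary within both groups.

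Nerves of the gut wall gave 10 lower and 0 higher of 28 tested enteric neuron genes. Without control replicate 1 these counts were 14 and 2, and with equal summed FPKM 6 and 0. For enteric neuron genes the count that fell was 4 without control replicate 2, 17 without control replicate 3, 2 without HFD replicate 1, 2 without HFD replicate 2 and 1 without HFD replicate 4. Gal, the neuropeptide galanin, measured 4.2, 5.24 and 3.7 FPKM in HFD against 42.3, 36.8 and 14.1 FPKM in control. Penk, an opioid precursor, measured 9.82, 6.55 and 6.61 FPKM in HFD against 39.9, 22.4 and 20.1 FPKM in control. Tubb3, a tubulin of neurons, measured 6.82, 4.89 and 6.6 FPKM in HFD against 30.4, 19 and 13.3 FPKM in control. For Gal, Penk and Tubb3 the highest HFD library lay below the lowest control library. Prph, a filament of peripheral neurons, fell by 1.52. The controls were highest in replicate 1 for all 4 genes, the library with the most smooth muscle RNA, whose part in these results was not tested. Of 13 tested glial genes 0 rose and 2, Gfap and Foxd3, fell (-0.82 and -0.66), or 1 and 4 without control replicate 1.

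In the muscle list itself 2 of 30 tested genes rose and 0 fell, or 7 and 5 without control replicate 1. Thbs4, a matrix protein of muscle and tendon, measured 98.7, 109 and 92.3 FPKM in HFD against 15.7, 3.13 and 3.31 FPKM in control (3.91, SE 0.53, adjusted p = 0.0052). The contractile genes Acta2, Actg2 and Myh11 were not called, with Myh11 at 160, 164 and 125 FPKM in HFD against 656, 189 and 134 FPKM in control. Of 48 tested collagen and matrix genes 3 rose and 0 fell. Without control replicate 1 these counts were 20 and 1, and with equal summed FPKM 7 and 0. For collagen and matrix genes the count that rose was 0 without control replicate 2, 0 without HFD replicate 1, 0 without HFD replicate 2 and 0 without HFD replicate 4. Col1a2 measured 22.8, 25.6 and 26.7 FPKM in HFD against 19.6, 13.4 and 11 FPKM in control. Bgn, a small proteoglycan, measured 36.2, 32.7 and 33.4 FPKM in HFD against 23.2, 18.4 and 12.7 FPKM in control, while Col1a1 and Col3a1 were not called. Of 31 tested fibroblast and telocyte genes 3 rose and 1 fell. Without control replicate 1 these counts were 9 and 2, and with equal summed FPKM 7 and 1. Hhip, which binds hedgehog signals, measured 4.94, 4.69 and 4.64 FPKM in HFD against 0.408, 0.938 and 0.742 FPKM in control. Fgfr2, a growth factor receptor, measured 5.6, 5.78 and 5.7 FPKM in HFD against 10.5, 11.4 and 11.4 FPKM in control.

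Of 77 nuclear-encoded subunits of the respiratory chain 0 rose and 13 fell, against 54 without control replicate 1 and 6 with equal summed FPKM. For respiratory chain subunits the count that fell was 2 without control replicate 2, 4 without control replicate 3, 2 without HFD replicate 1, 4 without HFD replicate 2 and 3 without HFD replicate 4. Uqcr11 and Cox5b are of complexes III and IV. Uqcr11 measured 67.9, 65.6 and 54.3 FPKM in HFD against 116, 166 and 161 FPKM in control. Cox5b measured 69.3, 71.8 and 56.8 FPKM in HFD against 105, 166 and 179 FPKM in control. Transcripts of the mitochondrial genome took 11.6% ± 1.92 of all FPKM in HFD, against 21.7% ± 4.53 in control (n = 3 each, exact permutation p = 0.1, two-sided). In glycolysis and hypoxia genes 2 of 39 rose and 4 fell, or 4 and 11 without control replicate 1, and 7 and 3 with equal summed FPKM. Slc2a1, the basal glucose carrier, measured 29.4, 28.8 and 25.6 FPKM in HFD against 67.2, 81 and 72 FPKM in control. For glycolysis and hypoxia genes the count that fell was 2 without HFD replicate 1, 2 without HFD replicate 2 and 2 without HFD replicate 4. Ndrg1, a stress gene of mature epithelium, measured 10.1, 9.31 and 11.4 FPKM in HFD against 36.2, 61.1 and 65.1 FPKM in control.

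Clock genes turn over in the course of a day, and the time of day of dissection is not given in the sources used here. Of 21 tested members 3 rose and 3 fell, or 5 and 3 without control replicate 1. With all libraries this is 14.3% in each direction, against 10.9% higher and 8.86% lower of all genes. Arntl and Clock form the activating pair. Arntl measured 9.65, 9.3 and 10.2 FPKM in HFD against 6.43, 5.7 and 6.67 FPKM in control. Clock measured 11.6, 10.8 and 12.3 FPKM in HFD against 5.66, 5.95 and 5.86 FPKM in control. The repressor Cry1 measured 8.64, 11.2 and 9.58 FPKM in HFD against 16.8, 17.3 and 16.9 FPKM in control. For Arntl and Clock every HFD library lay above all 3 control libraries, and for Cry1 below them. The repressor Cry2 measured 3.4, 2.88 and 2.71 FPKM in HFD against 7.05, 6.17 and 5.72 FPKM in control. Of 37 tested immediate early and stress genes 3 rose and 4 fell (8.11% and 10.8%), or 5 and 7 without control replicate 1. Jun and Atf4 fell (-1.20 and -0.79), while Hspa5, a chaperone of the secretory pathway, rose by 0.72. For immediate early and stress response genes the count that fell was 2 without HFD replicate 1, 2 without HFD replicate 2 and 2 without HFD replicate 4.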

How the data were processed

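Total RNA of colon tissue was extracted with Trizol, checked on a Bioanalyzer and made into Illumina libraries, per the labels' protocols. The submitters' processing notes name HISAT2 2.0.5 and the build GRCm39, while for the counting tool and annotation nothing is stated there. The authors deposited FPKM values for 54491 gene identifiers, of which 52093 matched a symbol in GENCODE M21 and 2398 did not. Read totals are not in the table, so low values were compared between libraries: ratios were whole numbers (tolerance 0.0005 on the natural log, up to 20) for 93.6% to 94.8% of low genes, which gave relative depth. FPKM is relative to a library's total, so abundant transcripts in 1 group lower all others.

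Genes that reached 0.5 FPKM in 3 or more of the 6 libraries were tested on log2(FPKM + 1) with limma 3.58.1 (R 4.3.3, trended variance) over 3 HFD and 3 control libraries, Benjamini-Hochberg adjusted over 16909 genes and called below 0.05. Class shares were compared by exact permutation. Tested on simulated data for this comparison with 16909 genes and 200 changed ones, the procedure found 46% of genes changed by 1 log2 unit and 82% of those changed by 2, with 10 false among 138 calls. Other pseudocounts, filters, scalings, variance models, a replicate block and each library left out were tried. The members and lists were chosen with earlier results of these data known. Genes named are, for each list, the first 3 tested and up to 6 called in each direction with the largest difference, a mean of at least 1 FPKM and groups that do not overlap, plus the 12 largest overall in each direction and fixed cell markers. Promoters were read from RefSeq (GRCm38.p6). Some genes that the rule would name are not reported here.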

Additional observations from a re-analysis of the deposited data

How the results depend on the processing

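The direction of every one of the 3335 called genes was kept under each alternative that tested it, and 3241 of them were also called without control replicate 1. Without control replicate 2 or 3 that number was 1709 or 2271, and without HFD replicate 1, 2 or 4 it was 1333, 1499 or 1315. The counts, 1837 higher and 1498 lower, were 3647 and 922 with equal summed FPKM, and 2997 and 964 with mitochondrial and immunoglobulin genes removed before scaling. Leaving out 1 library gave 830 to 2589 higher and 474 to 2785 lower. The share of mitochondrial transcripts differed by -12.6 to -8.34 percentage points and that of immunoglobulin by 7.21 to 8.93 when 1 library was left out. Libraries share the numbers 1 and 2 only, with correlations of -0.076 and -0.109 between same-numbered libraries and of -0.055 to 0.165 between others. So few pairs cannot decide whether the numbers pair libraries. With the replicate block 0 genes were called by limma in either direction, while 3442 had an unadjusted p below 0.05, against 6003 without it. That block leaves control replicate 3 and HFD replicate 4 without a partner, so its fit compares only replicates 1 and 2 and has little power. The median of 8 of 58 lists changed sign with equal summed FPKM, and 0 did relative to the median of all genes. The genes below were not called as tested and changed sign, and the cause was not tested. With the replicate block the log2 difference was -0.04 for Cftr, 0.17 for Hmgcs1, 0.00 for Krt14, -0.03 for Lgr5 and 0.04 for Vdr. With quantile normalization the log2 difference was 0.02 for Gcg, 0.11 for Hmgcs1, 0.03 for Krt8 and 0.05 for Vdr. With equal summed FPKM the log2 difference was 0.25 for Gcg, 0.25 for Hmgcs1, 0.05 for Sptlc2 and 0.14 for Vdr. With mitochondrial and immunoglobulin genes removed the log2 difference was 0.22 for Gcg, 0.21 for Hmgcs1, 0.01 for Sptlc2 and 0.11 for Vdr. With 1 library left out it ranged from -1.55 to 1.24 for Anpep, -0.03 to 0.70 for Car2, -0.16 to 0.17 for Cdx1, -0.11 to 0.20 for Cftr, 0.00 to 0.39 for Cps1, -3.50 to 0.24 for Fabp6, -0.32 to 0.53 for Gcg, -0.26 to 0.18 for Hmgcs1, -0.34 to 0.03 for Krt14, -0.23 to 2.05 for Reg4, -0.31 to 0.43 for Slc16a1, -0.06 to 0.26 for Sptlc1, -0.06 to 0.39 for Tnf, -0.39 to 0.02 for Vdr and -0.35 to 1.73 for Zg16. Depth was similar in all libraries. In the simulated data, with 3 libraries in each group, 46% of genes changed by 1 log2 unit were found. Those data held 200 changed genes, far fewer than the 3335 called here, so their recovery need not hold for this comparison.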

Other observations

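Of 8 tested mast cell genes 3 were called higher and 0 lower, and of 6 tested neutrophil and eosinophil genes 3 were called higher and 0 lower. Another 11 mast cell genes and 16 neutrophil and eosinophil genes did not reach the filter. The neutrophil and eosinophil list summed to 336, 311 and 260 FPKM in HFD, most of it Ly6g at 326, 299 and 252 FPKM. Among 32 tested endothelial and lymphatic genes 4 were higher and 1 lower, or 7 and 2 without control replicate 1. The number of these that rose was 2 without control replicate 2 and 2 without each HFD library in turn. The lists of neighbouring tissues gave 3 higher and 0 lower of 8 tested pancreatic acinar genes, 0 and 2 of 4 skeletal muscle genes, 0 and 1 of 5 erythrocyte genes, and 0 and 1 of 3 urogenital genes. Without control replicate 1 these were 3 and 1, 0 and 2, 0 and 2, and 0 and 2, and the mast cell and granulocyte counts were the same as with it.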
